A study of Mus musculus with 2 samples.

Results

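The alarmins S100a8 and S100a9 and 7 genes that mark neutrophils and their granules (Mpo, Elane, Ltf, Camp, Ngp, Ly6g and Csf3r) were followed on 2 arrays of mouse stomach. They were taken by symbol from the authors' summary sheet, which held all 9, each with 1 probe set, among 41345 probe sets and 30901 named genes. RNA came from the stomachs of 2 mice aged 12 weeks, on a mixed background repeatedly backcrossed to C57/B6. The control mouse had Atp4bCre, in which a proton pump promoter active in parietal cells drives Cre, and the other carried Atp4bCre together with MIST1-LSL. In that mouse Cre removes a stop cassette so that MIST1, a transcription factor of professional secretory cells, is meant to be expressed in parietal cells. Both mice carried Cre, so the genotypes differ in the MIST1-LSL allele and not in Cre. With 1 mouse per genotype, the allele cannot be told apart from other differences between the 2 mice.

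Each genotype had a single array, so the differences have no replicate check and no p-value is given. Levels are log2 values made by the authors with RMA, and differences are MIST1-LSL minus control on the log2 scale. The number of arrays limits the precision. The floor was 4.62, the median of all probe-set values, and signal below it was not shown to exceed background. The tissue is given as corpus in the labels but as whole stomach in the design text. The proton pump gene Atp4b, which defines parietal cells, read 12.13 in control and 12.11 in MIST1-LSL, and Krtdap, of keratinised squamous epithelium, read 12.22 on both arrays. Bhlha15, which encodes MIST1, read 5.26 and 5.30, a difference of 0.04, so its probe set does not show the forced expression that the label names. Where those probes lie on the transcript is not given in the sources used here, and MIST1-LSL below means the array so labelled. Pnlip, pancreatic lipase of acinar cells, read 2.70 and 10.55, and the part of pancreatic RNA in the differences below was not tested.

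As background, S100A8 and S100A9 are small calcium-binding proteins that pair to form calprotectin, which withholds zinc and manganese from microbes. Neutrophils carry them in large amounts in the cytosol, and squamous keratinocytes make them under stress or injury. Released calprotectin acts as an alarmin through receptors such as TLR4 and RAGE. Neutrophils store their antimicrobial proteins in granules that are filled in sequence as the cells mature in the bone marrow. Primary granules hold myeloperoxidase and serine proteases, specific granules hold lactoferrin and cathelicidin, and gelatinase granules hold matrix-degrading enzymes. Transcripts of many granule proteins are made mostly in bone marrow precursors and are low in mature neutrophils of tissue.

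The S100a8 and S100a9 genes lie next to each other on chromosome 3, with 0 protein-coding genes between them in RefSeq's annotation of GRCm38.p6. The 250 bases before the annotated start of each are shown because these are the members whose levels differed together. Those before Ltf, the granule gene above the floor on both arrays, are shown for comparison. Capitals mark 3 motifs searched on both strands, namely the E-box CANNTG, which basic helix-loop-helix factors such as MIST1 bind, the C/EBP-type motif TTNCNNAA and the TATA motif TATAAA. The sequences are from RefSeq, 5′ to 3′ on the strand of the gene. The S100a8 window is chr3:90668821-90669070 on the plus strand, the S100a9 window chr3:90695722-90695971 on the minus strand and the Ltf window chr9:111019042-111019291 on the plus strand.
S100a8: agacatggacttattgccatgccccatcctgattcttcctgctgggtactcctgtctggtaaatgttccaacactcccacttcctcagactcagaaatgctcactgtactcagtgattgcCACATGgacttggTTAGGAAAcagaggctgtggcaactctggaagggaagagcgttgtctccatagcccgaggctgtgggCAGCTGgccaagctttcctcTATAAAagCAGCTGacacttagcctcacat
S100a9: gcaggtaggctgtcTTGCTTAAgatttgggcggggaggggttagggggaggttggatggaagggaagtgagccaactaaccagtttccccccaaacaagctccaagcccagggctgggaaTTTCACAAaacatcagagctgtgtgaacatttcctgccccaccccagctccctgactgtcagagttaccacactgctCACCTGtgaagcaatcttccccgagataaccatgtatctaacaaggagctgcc
Ltf: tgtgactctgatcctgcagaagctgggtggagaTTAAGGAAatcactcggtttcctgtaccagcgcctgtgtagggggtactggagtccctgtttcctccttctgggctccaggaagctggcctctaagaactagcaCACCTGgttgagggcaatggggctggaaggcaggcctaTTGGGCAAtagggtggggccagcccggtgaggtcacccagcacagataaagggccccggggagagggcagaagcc

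The S100a8 window held 3 E-box, 1 C/EBP-type and 1 TATA match. In the S100a9 window 1 E-box and 2 C/EBP-type matches were found, and the same numbers were found in the Ltf window. The motifs did not overlap each other in these windows. Over all 9 genes, each of which had a window, 5 held an E-box, 5 a C/EBP-type motif and 2 a TATA motif. Among 32851 windows of the same length before annotated mouse starts, 66.2% held an E-box, 36.8% a C/EBP-type motif and 12.4% a TATA motif. A match describes letters only and is not a binding site.

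S100a8 and S100a9 were the members that differed by 2-fold or more. S100a8 read 6.72 in the MIST1-LSL stomach and 4.95 in the control stomach. The difference of 1.76 makes 105.1 against 31.0 on the linear intensity scale, or 3.39-fold higher. Its control level lay only 0.33 above the floor, so the fold is less certain on that side. S100a9 read 7.494 and 8.997, a difference of 1.503, or 511.1 against 180.3 and 2.84-fold higher, with both levels well clear of the floor. The differences of the pair lay within 0.26 of each other. For comparison, several probe sets of 1 gene gave differences that varied with an SD of 0.21 (499 such genes), a measure of the probes and not of the mice.

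Of the 17337 genes above the floor, 0.969% read higher in MIST1-LSL by 2-fold or more and 0.473% read lower by as much. S100a8 stood at place 58 from the top and S100a9 at place 79. The middle 95% of these genes lay between -0.63 and 0.68. Of the 9 members, 2 passed 2-fold upwards and 0 downwards, against 1.16% and 0.641% of all 30901 genes with no floor applied. As many members lay below 0 as above it, 4 each, against 50% and 45.9% of all 30901 genes, and Elane lay at exactly 0. The plot of levels by gene shows how far the S100 pair stands from the other 7.

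**Figure D1:**
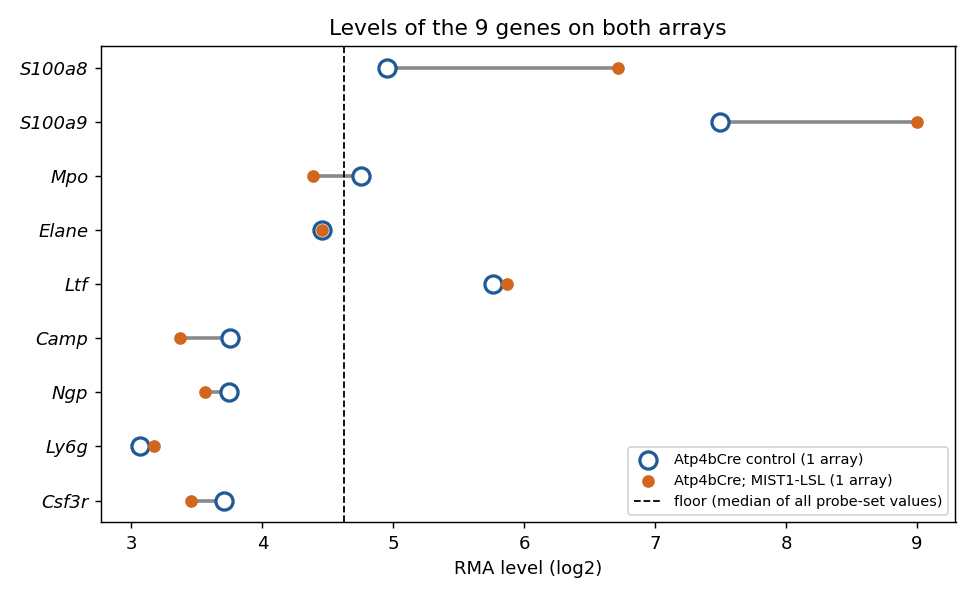
Log2 RMA level of each of the 9 genes on the control array (open circles) and the MIST1-LSL array (filled circles), with the floor of 4.62 as a dashed line and 1 array per genotype. S100a8 moves from 4.95 to 6.72 and S100a9 from 7.494 to 8.997, while the other 7 genes shift by at most 0.38 either way.

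The primary granule members did not share that difference. Mpo, which encodes the peroxidase that makes hypochlorous acid, differed by -0.37, from 4.75 in control to 4.38 in MIST1-LSL. Only the control level reached the floor. Elane, neutrophil elastase, read 4.45 on both arrays and lay below the floor. In the authors' sheet its values were equal to every digit, which was so for 1476 probe sets in all, or 3.57%. In the series table the Elane values differed by -0.00196.

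Of the specific granule members, Ltf was the 1 above the floor on both arrays. Ltf encodes lactoferrin, an iron-binding protein that gland epithelia also secrete. It read 5.76 and 5.87, a difference of 0.10, which is below the SD between probe sets. Camp, the precursor of the cathelicidin peptide, read 3.75 and 3.37, a difference of -0.38. Ngp, a granule protein of the cathelicidin-like kind, read 3.74 and 3.56, a difference of -0.18. Camp, Ngp and Ltf share chromosome 9, with 8 protein-coding genes between Camp and Ngp and 20 between Ngp and Ltf.

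Both surface members lay below the floor on both arrays. Ly6g, the antigen by which mouse neutrophils are usually identified, read 3.06 and 3.17, a difference of 0.11. Csf3r, the receptor for the growth factor G-CSF that drives neutrophil production, read 3.71 and 3.45, a difference of -0.25. In all, 5 of the 9 members lay below the floor on both arrays. The differences of the 7 members besides the S100 pair ran from -0.38 to 0.11 with a median of -0.18. The median of all 17337 genes above the floor was -0.03. The defining neutrophil markers Ly6g and Csf3r were thus not shown above background. Ltf was above the floor on both arrays, as were the receptor genes Cxcr2 and Cxcr1, which differed by 0.18 and -0.25. The floor is the median of all probe-set values and no detection call, so lying above it does not show expression. The part of neutrophils in the S100a8 and S100a9 levels was not tested. In whole tissue, fewer or more cells of a type cannot be told apart from less or more RNA per cell.

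**Figure D2:**
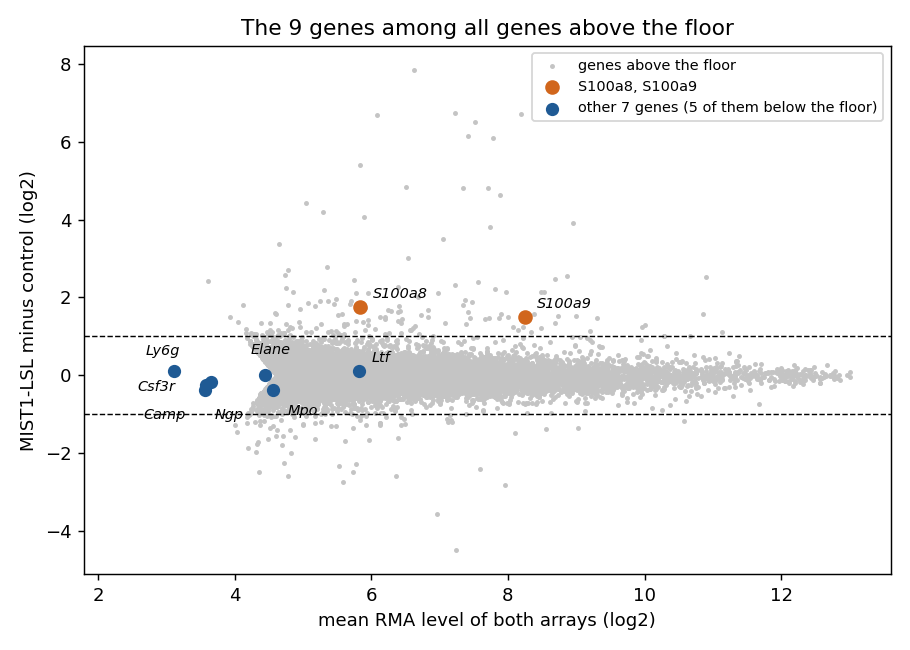
MIST1-LSL minus control (log2) against the mean log2 level of both arrays for 17337 genes above the floor (grey) and for the 9 genes, with 2-fold differences as dashed lines. S100a8 at 1.76 and S100a9 at 1.503 lie above the upper line, and the other 7 genes lie between both lines.

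Wider lists of neutrophil genes were read next. The primary granule list, which includes Mpo and Elane, had 8 genes measured and 5 above the floor, all of them below 0, against 53.1% of all genes above the floor. Their median was -0.22. None differed by 2-fold, against 0.969% higher and 0.473% lower among all genes above the floor. Prtn3, proteinase 3, differed by -0.22 (5.12 and 4.90) and Ms4a3, a marker of granulocyte precursors, by -0.30 (4.79 and 4.49). Ctsc, the protease that activates granule serine proteases and is expressed in many cells, read 8.56 and 8.42. Ctsg (cathepsin G) and Bpi, a lipopolysaccharide-binding protein, were below the floor on both arrays.

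Among surface receptors 16 were measured and 5 were above the floor. None of these 5 differed by 2-fold, against 0.969% higher and 0.473% lower among all genes above the floor. Cxcr2, the main receptor for neutrophil chemokines, read 4.83 and 5.01. Cxcr1, a related receptor, read 4.89 and 4.65, and Itgam, the integrin subunit CD11b, read 4.69 and 4.52. The median of the 5 was -0.17. The formyl peptide receptor gene Fpr2 differed by -1.204 (3.07 and 1.87), but both levels were below the floor, as were those of Fpr1 and Trem1.

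The specific and gelatinase granule list was more mixed. Of 20 genes, 11 were above the floor, with a median of 0.17. Of these 11, 2 passed 2-fold upwards and 1 downwards, against 0.969% and 0.473% of all genes above the floor. The higher ones were the stefin A genes Stfa1 (7.11 and 8.69, a difference of 1.58) and Stfa3 (6.70 and 8.17, a difference of 1.47). Stefin A proteins inhibit cysteine cathepsins and are made by neutrophils and by squamous epithelium alike. Stfa2l1, of the same family, differed by 0.98 (6.26 and 7.24), whereas Stfa2 and BC100530 were below the floor on both arrays. Their sequences are very alike, so how the signal divides among them is uncertain.

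Other members of that list differed in either direction. Retnlg, a resistin-like gene of neutrophils, differed by 0.81 (4.22 and 5.03), with its control level below the floor. Chil3 differed by 1.01 (3.37 and 4.38), but both levels were below the floor. Pglyrp1, a peptidoglycan-binding protein of neutrophil granules and of epithelia, differed by 0.46 (8.26 and 8.72). The haptoglobin gene Hp, also made by liver and fat, differed by -1.06 (5.06 and 3.999), with its MIST1-LSL level below the floor. Lcn2 (lipocalin 2) read 4.70 and 4.80, Mmp9 (gelatinase B) 4.90 and 4.75 and Olfm4 4.75 and 4.86. Over the 3 neutrophil lists, counting each gene once, 43 genes were measured and 20 were above the floor. Of these 20, 10 lay above 0 and 10 below, against 44.9% and 53.1% of all genes above the floor. Their median was 0.01.

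Few genes that act on neutrophils from outside could be read. The list of attractants, cytokines and their receptors had 16 genes measured and 6 above the floor, with a median of -0.11. None of these 6 differed by 2-fold, against 0.969% higher and 0.473% lower among all genes above the floor. C5ar1, the receptor for complement C5a, differed by -0.96 (4.85 and 3.89), and Ltb4r1, the leukotriene B4 receptor, by 0.41 (5.01 and 5.42). Csf3, which encodes G-CSF, read 4.61 and 4.85. The neutrophil chemokine genes Cxcl3 (1.93 and 3.74) and Cxcl1 (3.61 and 4.59) had the highest differences of the list, 1.81 and 0.98, but lay below the floor on both arrays. They were named after their values were seen.

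The next 3 lists were alarmin receptors and signalling, the NADPH oxidase and granulocyte transcription factors. Of their genes above the floor, none differed by 2-fold, against 0.969% higher and 0.473% lower among all genes above the floor. Of 9 genes above the floor on the list of alarmin receptors and signalling, 6 lay above 0. The share of all genes above the floor was 44.9%, and the median of the 9 was 0.06. Tlr4, a receptor for calprotectin, read 7.88 and 8.20, and Ager, which encodes RAGE, read 5.01 and 4.88. Nfkbiz, an NF-kB cofactor induced by inflammatory signals, differed by -0.73 (6.01 and 5.28). The NADPH oxidase that makes superoxide in phagocytes had 5 of 6 subunit genes above the floor, 4 of them below 0, with a median of -0.22 that came to 0.0639 with the floor at the 75th percentile. Its catalytic subunit gene Cybb differed by -0.69 (5.03 and 4.34). Granulocyte transcription factors had a median of -0.18 over 5 genes above the floor, which turned to 0.24 with that higher floor. Cebpe, which switches on specific granule genes, read 4.74 and 4.56, and Cebpb read 6.63 and 6.87.

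**Figure D3:**
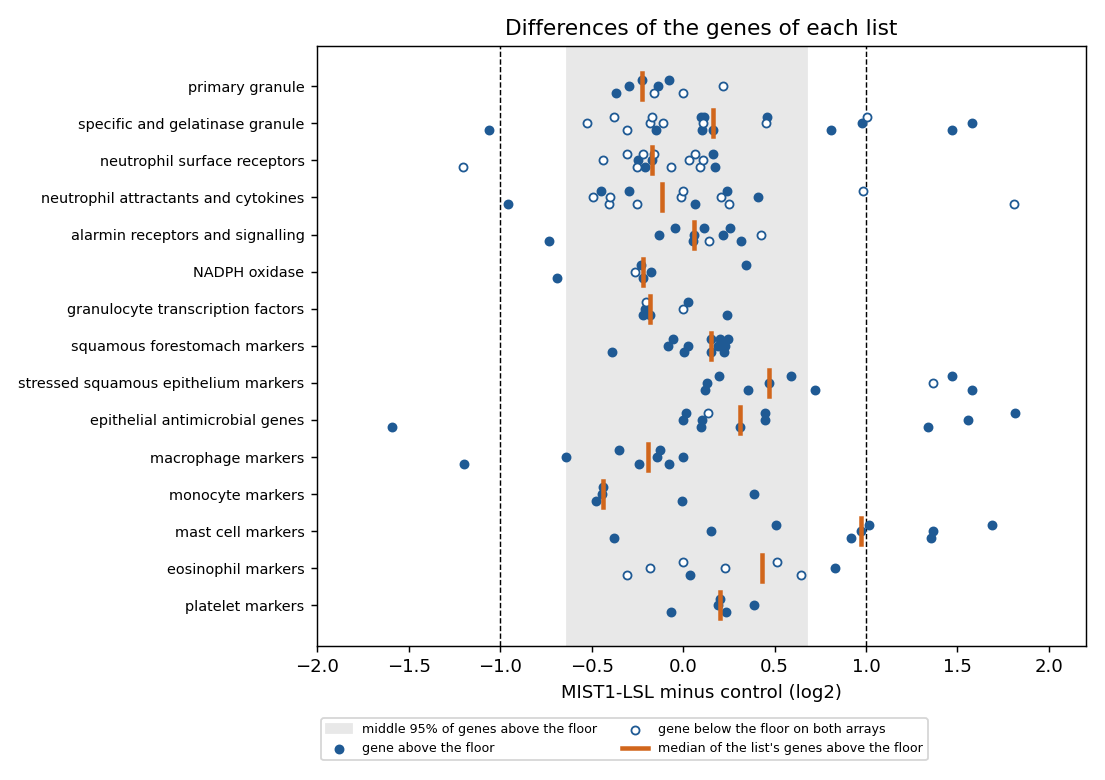
MIST1-LSL minus control (log2) for each gene of 15 lists, with filled points above the floor, open points below it on both arrays, orange bars at the median of each list's genes above the floor, dashed lines at 2-fold and a grey band for the middle 95% of genes above the floor. The medians of the primary granule and surface receptor lists lie below 0, at -0.22 and -0.17, while the mast cell median lies at 0.97.

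Within the S100 family 3 genes were at least 2-fold higher, against 0.969% of all genes above the floor. The list had 16 genes measured, all above the floor, and their median difference was 0.13. It left out S100a2 (5.28 and 5.77) and S100a7l2 (10.92 and 10.63), and with these the median over 18 genes was also 0.13. The third, beside S100a8 and S100a9, was S100g (5.31 and 10.10, a difference of 4.80), which encodes calbindin-D9k, a calcium buffer of intestinal epithelium. S100a10, the partner of annexin A2, differed by -0.74 (8.39 and 7.65). S100b, a marker of glia, differed by 0.69 (4.35 and 5.03), and its control level was below the floor. S100a6 (12.85 on both arrays) and S100a11 (11.98 on both), which are expressed in many epithelia, were close to the top of the range, where the brightest probe set read 13.38.

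The genes around the pair on chromosome 3 were read as well. Of the 24 protein-coding genes within 12 places on either side, 20 had a named probe set and 17 were above the floor. None of these 17 differed by 2-fold, against 0.969% higher and 0.473% lower among all genes above the floor. With shares this low, a count of 0 among 17 genes says little about the neighbourhood. Their differences ran from -0.43 (S100a3) to 0.49 (S100a2) with a median of 0.02. S100a7a, the neighbour of S100a8, read 5.31 and 5.24. Past S100a9, the peptidoglycan recognition gene Pglyrp4 was below the floor, and the cornified envelope genes Lor and Sprr2b differed by 0.27 (6.53 and 6.80) and 0.33 (8.52 and 8.86).

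**Figure D4:**
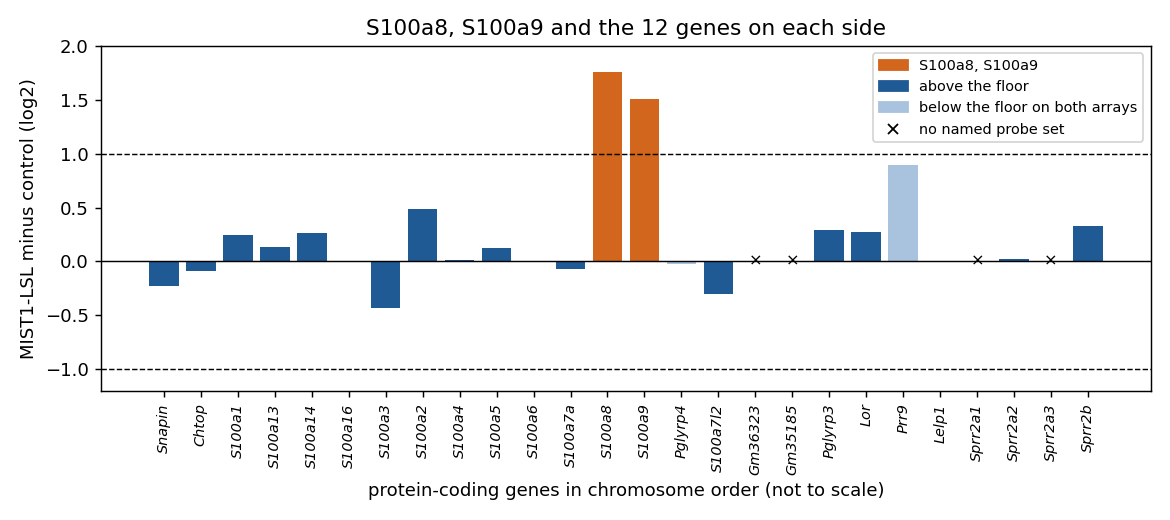
Bars show MIST1-LSL minus control (log2) for S100a8, S100a9 and the 12 protein-coding genes on each side in chromosome order, with 2-fold differences as dashed lines and crosses for genes with no named probe set. S100a8 at 1.76 and S100a9 at 1.503 pass the upper line, and the other genes above the floor lie between -0.43 and 0.49.

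Markers of other cells that can express S100a8 and S100a9 were read beside them. The squamous forestomach list had all 12 genes above the floor and a median of 0.15. None of the 12 differed by 2-fold, against 0.969% higher and 0.473% lower among all genes above the floor. The list's summed linear intensity was 11724 in control and 11739 in MIST1-LSL. Without its brightest genes Krtdap and Sprr1a it was 3033 and 3255. Krt14 and Krt5, keratins of basal cells, differed by 0.23 (8.24 and 8.47) and 0.20 (6.54 and 6.75), and Ivl, involucrin, by -0.39 (5.28 and 4.90).

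Markers of stressed squamous epithelium lay higher in MIST1-LSL. All 9 genes of that list above the floor were above 0, with a median of 0.47, against 44.9% of all genes above the floor. Its summed linear intensity over the 10 genes measured was 1160 in control and 2065 in MIST1-LSL, or 917.1 and 1364 without Stfa1 and Stfa3. Both sums keep Sprr2d, the brightest gene of the list on both arrays, whose probe set has 9 probes. The 2 that passed 2-fold, against 0.969% of all genes above the floor, were Stfa1 and Stfa3, which also stand on the granule list. Without the stefin A genes 7 remained, all above 0, with a median of 0.35 and none at 2-fold. Krt16, a keratin of activated keratinocytes, differed by 0.59 (6.42 and 7.01), and Sprr2d, a cornified envelope protein, by 0.72 (8.99 and 9.71). Serpinb3a, a serpin of squamous cells, differed by 0.47 (5.97 and 6.44). Krt6a, Sprr2f and Sprr1b differed by 0.20, 0.13 and 0.12, below the SD of 0.21 between probe sets. The part of these cells in the S100a8 and S100a9 difference was not tested.

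The epithelial antimicrobial list had 11 genes above the floor, with a median of 0.31. Of these, 3 passed 2-fold upwards and 1 downwards, against 0.969% and 0.473% of all genes above the floor. Reg3g and Reg3b, secreted lectins that kill or bind bacteria and are also made by injured pancreas, differed by 1.82 (3.87 and 5.69) and 1.56 (4.73 and 6.29), the former from below the floor. Duoxa2, the maturation factor of an epithelial hydrogen peroxide-producing oxidase, differed by 1.34 (6.41 and 7.75). Saa3, an acute phase protein, differed by -1.59 (5.69 and 4.09).

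Markers of other myeloid cells differed in opposite directions. Mast cell markers were mostly higher, with all 9 genes above the floor and a median of 0.97. Of these, 8 lay above 0 and 1 below, against 44.9% and 53.1% of all genes above the floor. The 1 below was Kit, at -0.38 (6.83 and 6.45). At least 2-fold higher were 4, against 0.969% of all genes above the floor. The summed linear intensity of the list was 1666 in control and 3257 in MIST1-LSL. Fcer1a, the IgE receptor chain, differed by 1.69 (5.40 and 7.09). The mast cell protease genes Mcpt4 and Mcpt1 differed by 1.37 (4.26 and 5.63) and 1.36 (8.02 and 9.37), and the chymase gene Cma1 by 1.02 (6.40 and 7.42). Macrophage markers had 7 of 8 genes below 0, against 53.1% of all genes above the floor, and 1 at exactly 0, with a median of -0.19. Their summed linear intensity was 564.2 and 397.7, and without Lyz2, whose probe set has 8 probes, 352.8 and 305.4. Lyz2, lysozyme of macrophages and neutrophils, differed by -1.19 (7.72 and 6.53), and C1qc, a complement subunit made by macrophages, by -0.64 (5.87 and 5.23). The part of mast cells and macrophages in the S100 difference was not tested.

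Monocyte markers had a median of -0.44 over 5 genes, 4 below 0 and 1 above, against 53.1% and 44.9% of all genes above the floor. Ccr2, the receptor that brings monocytes into tissue, differed by -0.48 (4.84 and 4.36) and Ly6c2 by -0.44 (6.08 and 5.65). The 1 above 0 was Cx3cr1, at 0.39 (6.61 and 6.99). The summed linear intensity of the 5 was 1691 and 1678, most of it from Plac8 (10.51 and 10.50), a gene that other cells also express. Without Plac8 it was 237.5 and 230.0. Of 8 eosinophil markers measured, 2 were above the floor, with a median of 0.43. These were Ear2, which differed by 0.83 (4.75 and 5.58), and Siglecf, by 0.04 (5.15 and 5.19). The defining granule genes Prg2 and Epx were below the floor on both arrays. Platelet markers had a median of 0.20 over 5 genes, with Ppbp, a platelet chemokine, at 0.23 (6.11 and 6.35). Of the 3 erythroid markers measured 1 was above the floor, the haem synthesis gene Alas2 at -0.16 (4.86 and 4.70), and blood content was thus little measured here.

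The genes nearest to the pair in both levels were taken by Euclidean distance over the 2 log2 levels. With only 2 arrays this says no more than that both signals were close. Levels are not comparable between probe sets, so close signals need not mean close amounts of RNA. Nearest to S100a8 were Ropn1l (4.996 and 6.81, distance 0.10), St3gal4 (5.05 and 6.78, distance 0.11) and Cdhr5 (4.78 and 6.60, distance 0.21). Nearest to S100a9 were Lce3d (7.61 and 8.85, distance 0.19), Acta2 (7.59 and 9.17, distance 0.20) and Myh11 (7.56 and 8.72, distance 0.28). Acta2 and Myh11 encode contractile proteins of smooth muscle and differed by 1.58 and 1.16. Lce3d, the nearest to S100a9, differed by 1.24, and Ropn1l, St3gal4 and Cdhr5 by 1.81, 1.73 and 1.82. The part of muscle, or of other tissue that expresses these genes, in the S100a8 and S100a9 difference was not tested.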

How the data were processed

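Per the labels' protocols, total RNA was amplified and labelled with biotin for Affymetrix arrays, and amplification can change relative levels. The authors processed the arrays with RMA and Partek, per the submitters' processing notes, and deposited log2 levels per probe set. RMA makes levels comparable between arrays but not between probe sets. The summed intensities thus weigh each gene by its signal and not by its amount of RNA. For software versions, none is stated in the labels. The authors' sheet, per the file headers, also holds linear intensity, the ratio of MIST1-LSL to control and the number of probes. Folds and differences here were computed from the log2 levels.

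Names came from the sheet's symbol column and were updated through RefSeq's table of GRCm38.p6. Of 32471 probe sets with a gene, 21748 matched by accession, 6112 by symbol and 367 by synonym, and 4244 kept the file's name. A gene with several probe sets was read from the one with the highest mean. The floor was the median of all probe-set values, and the size rule a log2 difference of at least 1. No rescaling and no test were applied. The procedure was tested on simulated data.

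Members and lists were chosen with earlier results of these data known. Named genes were all members, up to 4 genes per list with the largest difference above the floor, and genes of the neutrophil and S100 lists. The chromosome neighbourhood, a few genes that illustrate a list (among them Atp4b, Pnlip, Krtdap, Krt5, Csf3, Ager, Cxcl1 and Cxcl3) and the motifs were chosen after values were seen. Samples were grouped by the labelled genotype. Alternatives were median centring, loess (span 0.3) or quantile normalization, the series table's values, a floor at the 75th percentile or none, other choices of probe set, 1.5-fold and 3-fold rules, and a minimum of 10 probes. Scanner files and the authors' gene ontology sheets were not used here. Python 3.11.15, numpy 2.4.6, pandas 2.3.3, statsmodels 0.14.6 and matplotlib 3.10.9 were used.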

Additional observations from a re-analysis of the deposited data

How the results depend on the processing

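Over the 9 alternatives that give one, the difference of S100a8 stayed between 1.763 and 1.802 and that of S100a9 between 1.503 and 1.542. Those of the other 7 members, over 8 or 9 alternatives, moved by under 0.21, the SD between probe sets. The floors, the choices of probe set and the probe minimum could not change these differences. Each member had 1 probe set, of 12 or more probes. Only the rescalings and the series table's values could change them, and the latter lay within 0.005 of the sheet's. With a 3-fold rule 1 member, S100a8, was counted as higher. Over all genes, higher and lower counts were 358 and 198 with no floor, 605 and 574 with a 1.5-fold rule, and 67 and 24 with a 3-fold rule, and 42 genes were lower with the floor at the 75th percentile. With no floor the eosinophil median came to 0.13 and the erythroid median to -0.37. With the floor at the 75th percentile, which tests fewer genes, the specific and gelatinase granule median came to 0.98, NADPH oxidase to 0.0639, granulocyte transcription factors to 0.24 and monocytes to -0.0059. The count of 2-fold lower macrophage genes fell from 1 to 0 with at least 10 probes, since the Lyz2 probe set has 8. The sums of marker intensity without single genes were chosen after seeing the data. No paired analysis was possible because each genotype has 1 array. Replicates could not be left out for the same reason, and variation between mice is not measured.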
